A study of Mus musculus with 6 samples.

Results

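Inflammasome genes and their relatives of the NLR family were followed in HOXA9-immortalized granulocyte-macrophage progenitors (iGMPs) after knockdown of the histone chaperone CAF-1 and after loss of HOXA9 activity. The 10 genes were Nlrp10, Nlrp3, Nlrp12, Nlrc4, Naip5, Aim2, Pycard, Casp1, Il1b and Il18, of 34199 gene symbols in the files. They were found by symbol, and they were put together because Nlrp10 was already known to be higher after CAF-1 loss in these libraries. The comparison of CAF-1 OFF with control therefore only describes these genes. The rule does not name the comparison of HOXA9 OFF with control, but results of these data were known when the genes were chosen, and the same control libraries serve both comparisons.

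An inflammasome is a protein platform that assembles in the cytosol when a sensor meets a sign of infection or damage. The sensor recruits the adaptor ASC, encoded by Pycard, which brings in caspase-1, encoded by Casp1. Caspase-1 matures the cytokines interleukin-1β and interleukin-18 and opens a membrane pore that can kill the cell. Most sensors are NLR proteins, which join a nucleotide-binding domain to leucine-rich repeats, and they are best known from neutrophils, monocytes and macrophages. Granulocyte-macrophage progenitors are the precursors of those cells.

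The iGMPs came from C57Bl/6 mice and carry a lysozyme GFP reporter and a HOXA9 protein fused to an estrogen receptor domain, so they renew themselves only while estradiol is present. In CAF-1 OFF, 500 µM IPTG switched on a hairpin against Chaf1b, a CAF-1 subunit, in medium with 150 ng/ml estradiol. Control cells received IPTG as well, and in HOXA9 OFF estradiol was washed out, which sets off myeloid differentiation. The labels name neither the clones nor the control construct, and they do not say whether HOXA9 OFF cells received IPTG. All cultures grew in stem cell factor and were harvested at 24 h, with 2 bulk RNA-seq libraries per group. Independent sub-clones are mentioned for RNA-seq at a later time, but no source used here says that libraries of a group at 24 h came from separate cultures. The p-values then measure only the spread between these samples.

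Gene counts summed to between 16773560 and 25170898 per library, and 3 counts corresponded to between 0.118 and 0.182 CPM, the count scaled to the size of its library. The knockdown was visible, since Chaf1b stood at 17.8 and 12.1 CPM in CAF-1 OFF against 90.0 and 105 CPM in control and 64.6 and 61.4 CPM in HOXA9 OFF. Progenitor markers were present in control, where Kit, Cd34, Flt3 and Myb summed to 3690 and 3530 CPM. CAF-1 OFF libraries summed to 4020 and 3700 CPM, and HOXA9 OFF libraries to 1380 and 1310 CPM. In bulk RNA, fewer cells of a type and less RNA per cell cannot be told apart.

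The start regions of these genes are shown before their levels because the study follows factors of the ETS and C/EBP families. RefSeq promoter windows (GRCm38.p6, 250 bases before to 50 after a start) matched 9 of the 10 genes, with 2 windows for Nlrp3. Nlrp10 did not match. The ETS letters GGAAGT, searched on both strands, occurred in the windows of 6 of these 9 genes, and in 23.8% of all 32851 windows. They were Nlrp12, Nlrc4, Naip5, Aim2, Pycard and Il1b, and 30 bases around each match are printed along the gene's own strand. Capitals mark the match, which reads ACTTCC where it lies on the opposite strand.
Nlrp12, chr7:3249749-3249778, minus strand: tacctcataccaACTTCCacatcttcaaag
Nlrc4, chr17:74459197-74459226, minus strand: ttcaaagtccctACTTCCtggctactcagt
Nlrc4, chr17:74459101-74459130, minus strand: aacccaccaggcACTTCCttttttctacag
Naip5, chr13:100247338-100247367, minus strand: tagcctggtgccACTTCCtatttgctttca
Aim2, chr1:173420481-173420510, plus strand: aaccttattggaGGAAGTgggtcactgagg
Pycard, chr7:127993894-127993923, minus strand: tgtccccaccccACTTCCtccaccaaccca
Il1b, chr2:129371309-129371338, minus strand: tgccaccccttgACTTCCagggattagaaa

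The matches of Nlrp12, Naip5, Pycard and 1 of Nlrc4 began between 44 and 10 bases before the start, and those of Aim2 and Il1b began 111 and 187 bases before it. The C/EBP letters TTNCNNAA occurred in the windows of 6 of the 9 genes and in 40.7% of all windows. They include the 30 bases of Nlrp12 below, 70 bases before the start, and those of Il1b, 91 bases before it.
Nlrp12, chr7:3249792-3249821, minus strand: acagcagaagcTTGCTCAAtgtgggtcatg
Il1b, chr2:129371212-129371241, minus strand: cttcagttttgTTGTGAAAtcagttaaccc

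A loose NF-kB motif (GGG and CC with 5 free bases between them) occurred in the windows of Nlrp3, Naip5 and Casp1 and in 50.8% of all windows. The AP-1 letters TGANTCA occurred in 0 of the 9 genes and in 7.81% of all windows. A match describes letters only, and nothing was measured at these places.

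Nlrp10 encodes an NLR protein that, unlike most of the family, has no leucine-rich repeats. It lies at chromosome 7, 116065374 to 116073672, on the minus strand (NCBIM37), and no annotated gene overlaps it. The CAF-1 OFF libraries held 763 and 498 reads of Nlrp10, the control libraries 15 and 8, and the HOXA9 OFF libraries 22 and 67. In CPM these were 39.6 and 25.2, 0.589 and 0.464, and 1.06 and 4.06, so the 3 groups did not overlap. The gene was near its detection limit in self-renewing cells and well above it in both CAF-1 OFF libraries.

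The fitted log2 difference of Nlrp10 between CAF-1 OFF and control was 5.90 ± 0.66 (SE), about 59.9-fold. Summed over libraries, 1261 counts against 23 gave a ratio of 60.0 with an exact 95% counting interval of 39.8 to 95.0, which covers counting error only. As these values chose the gene, they are a description.

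In HOXA9 OFF, Nlrp10 was higher than in control by 2.21 ± 0.68 on the log2 scale (edgeR quasi-likelihood FDR 0.0493), at the edge of the cutoff and against the low control values for which the gene was chosen. Most of this came from 1 library, since without HOXA9 OFF 2 the log2 difference was 0.98 (edgeR FDR 0.221). The call was also lost without CAF-1 OFF 2, without control 1 and without control 2, at log2 differences of 2.21, 2.4 and 2.07. It was lost with the replicate block as well (log2 difference 2.16, edgeR FDR 0.0837). Scaling by library size alone (2.14, edgeR FDR 0.0537) and fitting only the 4 libraries compared (2.23, edgeR FDR 0.0584) ended it too. Between the induced states, the log2 difference of Nlrp10 was 3.69 ± 0.56 higher in CAF-1 OFF, again as a description. It was 3.01 without HOXA9 OFF 1 and 4.92 without HOXA9 OFF 2.

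**Figure D1:**
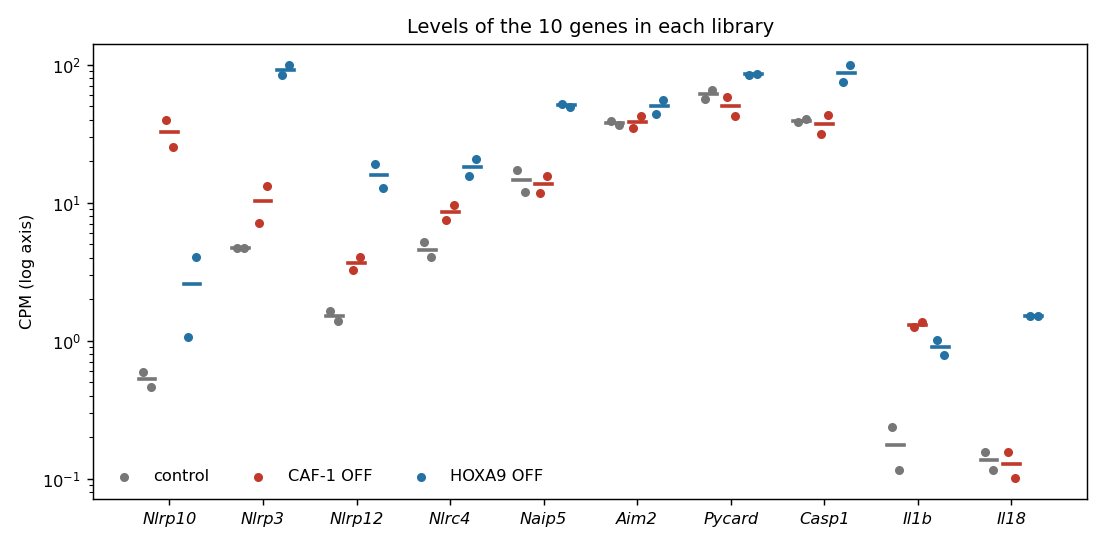
Levels in CPM on a log axis of the 10 genes, with a point for each of the 6 libraries and a bar at the mean of each group. Nlrp10 is highest in CAF-1 OFF (39.6 and 25.2 CPM), whereas Nlrp3 is highest in HOXA9 OFF (84.0 and 98.8 CPM).

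The genes around Nlrp10 were examined next because Tub, which lies near it, was known from earlier results of these data to rise. The values of Tub in CAF-1 OFF are therefore a description. Of 24 other genes with their own symbol annotated within 500 kb of Nlrp10, 19 had no counts in any library, among them all 17 olfactory receptor genes. Eif3f, which encodes a subunit of a translation initiation factor, starts 4.26 kb from Nlrp10 and was abundant throughout. It was counted 12941 and 11020 times in CAF-1 OFF, 13607 and 9698 times in control and 10913 and 7649 times in HOXA9 OFF. Its log2 difference from control was 0.16 ± 0.13 in CAF-1 OFF (edgeR FDR 0.702) and -0.15 ± 0.13 in HOXA9 OFF (edgeR FDR 0.414), so no change was detected in this closest gene.

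Tub, the tubby gene, lies beyond Eif3f, 80.7 kb from Nlrp10. The CAF-1 OFF libraries held 276 and 481 reads of it, whereas each of the other 4 libraries held at most 1 read. Against control the ratio of summed counts was 829 with an exact 95% counting interval of 148 to 32800. Nlrp10 was higher in CAF-1 OFF 1 and Tub in CAF-1 OFF 2, so their levels were not in a fixed ratio between these libraries. Further away, Ric3 had 2 and 2 counts and Lmo1 had 5 and 3 counts in CAF-1 OFF, and both had 0 counts in the other 4 libraries. These few reads lie near the floor of 3 counts and carry no fold change.

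**Figure D2:**
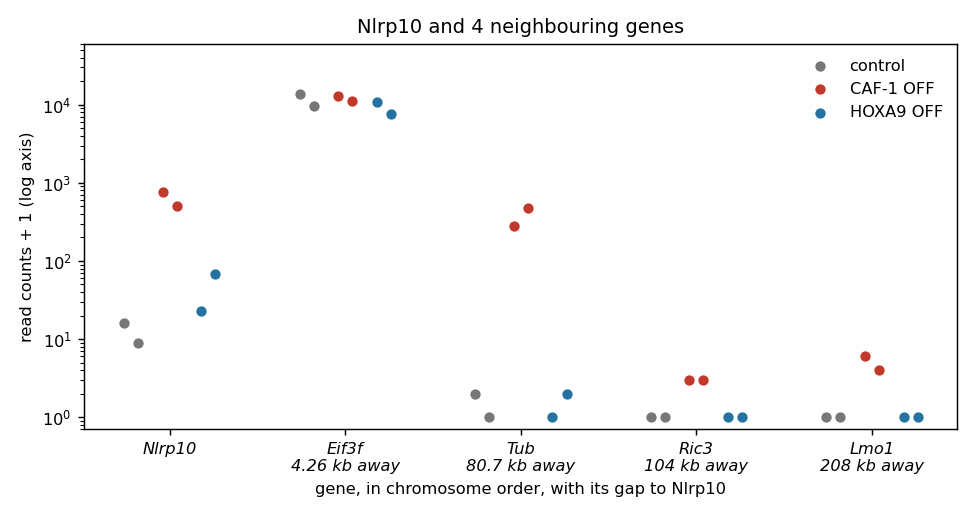
Read counts plus 1 on a log axis of Nlrp10 and 4 neighbouring genes in chromosome order, with a point per library. Nlrp10 and Tub are high only in CAF-1 OFF among the 3 groups, and Eif3f between them lies between 7649 and 13607 counts in every library.

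Nlrp10 is known from skin as well as from blood cells, and the levels of keratinocyte markers are given as a description. Krt10, Krt1 and Epcam had 0 counts in all 6 libraries, and the 6 markers of the list summed to between 0.145 and 0.608 CPM per library, with 0.312 and 0.608 CPM in the CAF-1 OFF libraries. In a line of immortalized myeloid progenitors, these markers were likely to be near 0 in any case. The source of the Nlrp10 reads was not tested.

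The genes most like Nlrp10 over the 6 libraries, by the correlation of log2 CPM among 11272 genes, were Fam3c, Cdc25b, Raet1d, Pbx3 and Brdt (r from 0.983 to 0.996). Each was highest in CAF-1 OFF, by smaller steps than Nlrp10. Raet1d, a ligand of an activating receptor of natural killer cells, averaged 5.54 CPM after CAF-1 knockdown, 0.976 CPM in control and 1.75 CPM after HOXA9 inactivation. Fam3c had 76.8, 58.7 and 64.8 CPM in the same order. With 6 libraries and so many genes, such values describe these libraries only.

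Except for Il1b, the other genes were highest in HOXA9 OFF. A call meant a 1.5-fold change or more with an FDR below 0.05, and in HOXA9 OFF 22% of 12460 genes tested were called and 13% were called higher than control. Of the 10 genes, 8 were called higher, but Il18 passed the filter on low counts through HOXA9 OFF alone, Il1b had no control library above it and Nlrp10 had 1. The count is therefore read over the 7 genes that both control libraries carried past the filter. Of these, 5 were called higher (Nlrp3, Nlrp12, Nlrc4, Naip5 and Casp1) and Aim2 and Pycard were not, against 12.3% of all genes that passed in the same way. Both HOXA9 OFF libraries lay above both controls for 7 of the 7, against 34.4% of those genes (35.1% of all tested). The median log2 difference was 1.79 over the 7 genes and -0.02 over those genes. The 5 were called in each of the 6 fits that left out a library.

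**Figure D3:**
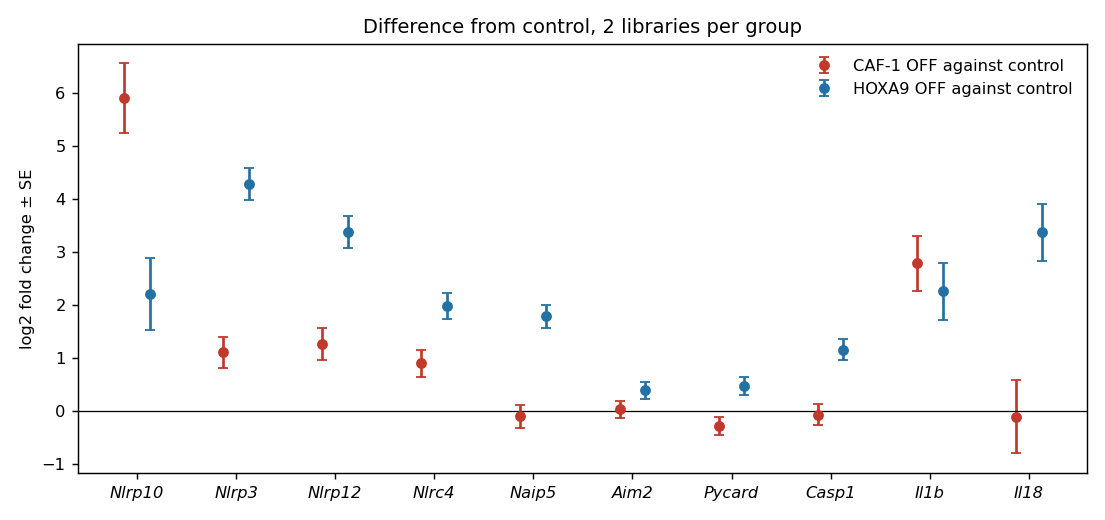
Log2 fold change against control with its SE for the 10 genes, in both induced groups. The CAF-1 OFF value is the larger for Nlrp10 (5.90 against 2.21) and Il1b (2.79 against 2.26), and the HOXA9 OFF value is the larger for the remaining genes.

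Nlrp3, the sensor that responds to potassium loss, crystals and many other stimuli, had the largest difference of the 10 genes between HOXA9 OFF and control. It lies at chromosome 11, 59355070 to 59380458 (NCBIM37). Its level of 84.0 and 98.8 CPM in HOXA9 OFF compares with 4.71 and 4.70 CPM in control cells and with 7.07 and 13.3 CPM in CAF-1 OFF. The 3 groups did not overlap, and the CAF-1 OFF libraries differed from each other more than either control did. With HOXA9 switched off, Nlrp3 rose by a log2 difference of 4.28 ± 0.30 (edgeR FDR 0.000475), about 19.4-fold. In CAF-1 OFF its log2 difference from control was 1.11 ± 0.29, and it was 0.6 without CAF-1 OFF 2 and 1.5 without CAF-1 OFF 1. Relative to HOXA9 OFF, its difference in CAF-1 OFF was -3.16 ± 0.28 (edgeR FDR 0.00096).

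Nlrp12, an NLR of myeloid cells described as a brake on NF-kB signaling, lies at chromosome 7, 3221511 to 3249741. It was found at 19.2 and 12.7 CPM in HOXA9 OFF, 1.65 and 1.39 CPM in control and 3.27 and 4.05 CPM in CAF-1 OFF. The groups again did not overlap, with CAF-1 OFF in between. The log2 increase was 3.38 ± 0.30 in HOXA9 OFF (edgeR FDR 0.000937), and the log2 difference from control was 1.26 ± 0.30 in CAF-1 OFF. CAF-1 OFF lay below HOXA9 OFF by -2.12 ± 0.28 (edgeR FDR 0.00311).

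Nlrc4 encodes the partner that assembles on NAIP sensors of bacterial flagellin and secretion needles. The gene lies at chromosome 17, 74825635 to 74858448. Its level was 15.6 and 20.7 CPM in HOXA9 OFF, 5.15 and 4.01 CPM in control and 7.53 and 9.67 CPM in CAF-1 OFF, with no overlap between groups. Its log2 increase without HOXA9 activity was 1.98 ± 0.25 (edgeR FDR 0.00249), and its log2 difference from control in CAF-1 OFF was 0.90 ± 0.25. CAF-1 OFF differed from HOXA9 OFF by -1.07 ± 0.24 (edgeR FDR 0.018), a call that was lost without CAF-1 OFF 1 (edgeR FDR 0.0722) and without HOXA9 OFF 2 (edgeR FDR 0.0976).

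Naip5, a flagellin sensor at chromosome 13, 100981694 to 101016278, rose when HOXA9 was switched off. It stood at 52.2 and 49.0 CPM in HOXA9 OFF, 17.2 and 11.9 CPM in control and 11.7 and 15.5 CPM in CAF-1 OFF, where control and CAF-1 OFF overlapped. The log2 increase in HOXA9 OFF was 1.79 ± 0.22 (edgeR FDR 0.00221), and the difference between CAF-1 OFF and HOXA9 OFF was -1.89 ± 0.22 (edgeR FDR 0.00206). Its paralogs lie in a row on the same chromosome, Naip2 at a gap of 9646 bases and Naip6 at 34797. Reads shared by these copies are missing from the counts, so each of their values is uncertain.

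Naip2 was 1.77 ± 0.17 higher in HOXA9 OFF on the log2 scale (edgeR FDR 0.00113), Naip6 was 1.40 ± 0.29 higher (edgeR FDR 0.0128), and Naip1 had 0 to 6 counts per library. In CAF-1 OFF, the differences of Naip2 and Naip6 from control were 0.00 ± 0.17 and -0.17 ± 0.29 (edgeR FDR 0.999 and 0.883).

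**Figure D4:**
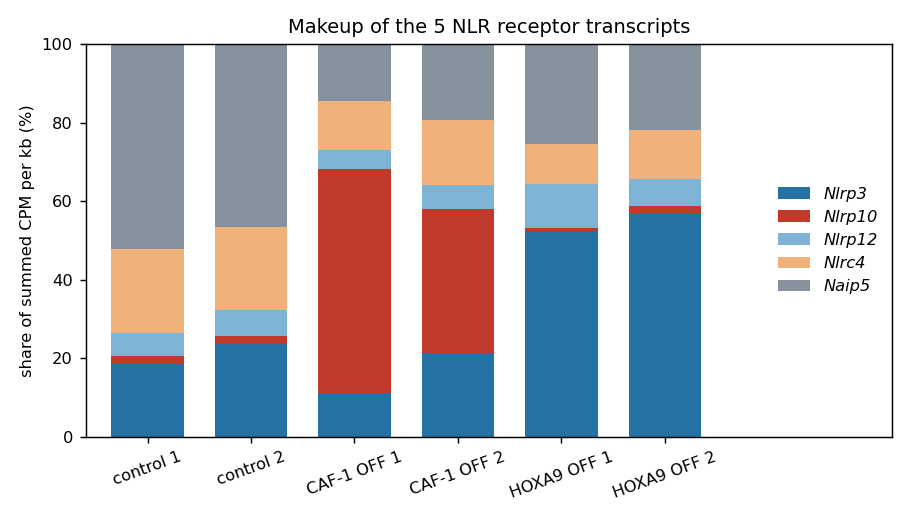
Share in percent of each NLR receptor gene in the summed CPM per kb of Nlrp3, Nlrp10, Nlrp12, Nlrc4 and Naip5, with a bar per library. Naip5 has the largest share in both controls, Nlrp10 in both CAF-1 OFF libraries and Nlrp3 in both HOXA9 OFF libraries.

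Among these 5 NLR genes, the one with the highest level per length differed between states, as the plot of receptor shares shows. Other NLR genes, such as Naip2 at 72.1 and 53.6 CPM in control, were not part of this sum. Divided by exon length and summed over the 5 receptor genes, Naip5 held 52.4% and 46.5% of the total in control. In CAF-1 OFF, Nlrp10 held 56.9% and 36.7%, although it held 2.08% and 2.11% in control. In HOXA9 OFF, Nlrp3 held 52.5% and 56.6%. These shares describe RNA, and the CAF-1 OFF shares of Nlrp10 restate the rise for which it was chosen.

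Aim2, the sensor of double-stranded DNA in the cytosol, lies at chromosome 1, 175281010 to 175396171, where Cadm3 overlaps it on the opposite strand without sharing exon bases. Its level was 44.1 and 55.5 CPM in HOXA9 OFF, 39.3 and 36.5 CPM in control and 34.7 and 42.5 CPM in CAF-1 OFF. HOXA9 OFF lay just above the overlapping ranges of the other groups. The log2 difference was 0.39 ± 0.16 in HOXA9 OFF (edgeR FDR 0.113) and 0.03 ± 0.16 in CAF-1 OFF, and it was -0.37 ± 0.16 between CAF-1 OFF and HOXA9 OFF (edgeR FDR 0.131).

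Of its relatives in the Ifi200 gene cluster, Ifi204 had 107 and 160 counts in HOXA9 OFF against 7 and 15 in control (log2 difference 3.75 ± 0.59, edgeR FDR 0.00516). Mnda had 16 and 8 counts in HOXA9 OFF against 1 and 0 in control and did not pass the filter on low counts. Ifi202b had 0 counts in every library. Members of this cluster are similar in sequence, so their counts are uncertain.

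The common adaptor and the common protease were already abundant in self-renewing cells. Pycard, at chromosome 7, 135135617 to 135137381, was measured at 56.8 and 66.0 CPM in control, 58.3 and 42.6 CPM after CAF-1 knockdown and 84.3 and 85.7 CPM after HOXA9 inactivation. Its log2 difference from control was 0.47 ± 0.17 in HOXA9 OFF (edgeR FDR 0.0744) and -0.28 ± 0.17 in CAF-1 OFF. CAF-1 OFF fell below HOXA9 OFF, at a difference of -0.75 ± 0.17 (edgeR FDR 0.017), a call lost without CAF-1 OFF 2, HOXA9 OFF 1 or HOXA9 OFF 2.

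Casp1, at chromosome 9, 5298517 to 5307265, stood at 75.1 and 99.9 CPM in HOXA9 OFF, 38.3 and 40.2 CPM in control and 31.4 and 43.2 CPM in CAF-1 OFF. Control lay within the range of CAF-1 OFF, and HOXA9 OFF lay above both. Switching HOXA9 off raised Casp1 by 1.16 ± 0.20 (log2, edgeR FDR 0.0066), and CAF-1 OFF differed from HOXA9 OFF by -1.23 ± 0.20 (edgeR FDR 0.00566). Its difference from control in CAF-1 OFF was -0.07 ± 0.20. Casp4, which encodes the caspase that detects bacterial lipopolysaccharide, lies 1562 bases away and was higher in HOXA9 OFF by 1.64 ± 0.28 (edgeR FDR 0.00679). Casp12, the next gene of the cluster, had 0 counts in every library.

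The cytokine transcripts were scarce in all states. Il1b, at chromosome 2, 129190306 to 129196875, gave 24 and 27 reads in CAF-1 OFF, 6 and 2 reads in control cells and 21 and 13 reads in HOXA9 OFF. These are 1.25 and 1.37, 0.236 and 0.116, and 1.01 and 0.788 CPM. Both induced groups lay above control, and CAF-1 OFF lay above HOXA9 OFF.

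The log2 increase of Il1b over control in HOXA9 OFF was 2.26 ± 0.54 (edgeR FDR 0.021), but the gene passed the filter only through CAF-1 OFF and HOXA9 OFF, and the call was lost when either control or either HOXA9 OFF library was left out, at edgeR FDR values from 0.0653 to 0.132. Its log2 difference from control in CAF-1 OFF was 2.79 ± 0.52, or 3.42 without control 1, and the ratio of summed counts was 6.98 with an exact 95% counting interval of 3.29 to 17.0. CAF-1 OFF and HOXA9 OFF differed by 0.53 ± 0.44 (edgeR FDR 0.41), so no difference between the induced states could be shown at these counts. An antisense gene, Gm14047, overlaps 25 exon bases and had at most 9 counts per library.

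Il18, at chromosome 9, 50383378 to 50389942, had 31 and 25 counts in HOXA9 OFF, 4 and 2 in control and 3 and 2 in CAF-1 OFF. Its levels of 1.5 and 1.52 CPM in HOXA9 OFF stood apart from the 0.101 to 0.157 CPM of the other libraries, which lie at about the level of 3 counts. The ratio of summed counts between HOXA9 OFF and control was 10.7 with an exact 95% counting interval of 4.62 to 30.4, and the log2 difference was 3.37 ± 0.53. These values are a description, since Il18 entered the fit only through its level in HOXA9 OFF. A change of Il18 in CAF-1 OFF was not detectable at this depth. The log2 difference between CAF-1 OFF and HOXA9 OFF was -3.49 ± 0.54, likewise a description.

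Sec16b, Lin28a, Lbr, Ly6c2 and Pam were most like Il1b over the 6 libraries (r from 0.98 to 0.997 among 11273 genes). Ly6c2, a surface antigen of monocytes and granulocytes, averaged 126 CPM in CAF-1 OFF, 98.4 CPM in HOXA9 OFF and 23.1 CPM in control.

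Levels were then compared between genes as CPM per kb of exon. In control the order was Pycard (43.7 ± 4.61, SD, n = 2), Casp1 (26.2 ± 0.903), Aim2 (10.8 ± 0.566), Naip5 (2.80 ± 0.726), Nlrc4 (1.19 ± 0.21), Nlrp3 (1.16 ± 0.00201), Nlrp12 (0.35 ± 0.0417), Il18 (0.195 ± 0.0413), Nlrp10 (0.118 ± 0.0197) and Il1b (0.0922 ± 0.0443). Nlrc4 and Nlrp3 did not differ beyond their spread, nor did Nlrp10 and Il1b, whose order turned when the longest transcript was taken as length (0.13 CPM per kb for Il1b). Adaptor and protease headed the order in all 3 groups. In HOXA9 OFF, Nlrp3 moved to the third place at 22.5 ± 2.59 CPM per kb, behind Pycard at 60.5 ± 0.723 and Casp1 at 58.5 ± 11.7, which overlapped. In CAF-1 OFF, Nlrp10 moved to the fourth place at 7.25 ± 2.28 CPM per kb, behind Aim2 at 11 ± 1.59.

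In CAF-1 OFF, Nlrp10, Nlrp3, Nlrp12, Nlrc4 and Il1b lay above control in both libraries, and the ranges of the other 5 genes overlapped with control. Over all genes tested, 20.1% lay above control in this way. As the choice of genes used this comparison, nothing is read from this count. The small differences of Casp1 and Naip5 changed sign with the library left out, to 0.14 for Casp1 without CAF-1 OFF 1 and 0.2 for Naip5 without control 1, and that of Pycard lay between -0.53 and -0.06.

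Set directly against HOXA9 OFF, 6 of the 7 genes that both controls carried past the filter were called lower in CAF-1 OFF (Nlrp3, Nlrp12, Nlrc4, Naip5, Pycard and Casp1), against 12.2% of all genes that passed in the same way. Over all genes tested, 12.6% were called lower and 9.56% higher. Aim2 was not called. The median log2 difference was -1.23 over the 7 genes and 0.01 over those genes. HOXA9 OFF libraries enter this comparison and the one with control alike, so the comparisons are not independent of each other.

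Further genes of the pathway were grouped by role. Of 72 listed genes, 10 had no counts in any library and 53 passed the filter. In HOXA9 OFF, 24 of these 53 were called higher and 2 lower, with a median log2 difference of 0.88 against 0 over all genes. As stated, 13% of all genes were called higher, and 8.97% were called lower. Of the 43 that both controls carried past the filter, 17 were called higher and 2 lower, with a median of 0.43, where 12.3% of all genes that passed in this way were called higher and 9.57% lower, with a median of -0.02. In CAF-1 OFF, 0 of 53 were called by the edgeR quasi-likelihood test, against 0.0321% of all genes. At an unadjusted p under 0.05 there were 8 of the 53, near the 10.7% of all genes. DESeq2 and the edgeR exact test each called 3 of the 53 (Nod1, Il33 and Il1r2). In all they called 192 and 243 of 12460 genes, a smaller share, but the list was chosen with earlier results known. The median log2 difference over the 53 genes was 0.15.

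By role, genes are counted in the same way, over those that both controls carried past the filter. Of all such genes, 12.3% were called higher in HOXA9 OFF and 9.57% lower. Among other NLR genes, 5 of 7 rose in HOXA9 OFF and 1 fell. Nlrp1a, an inflammasome sensor, had 552 and 387 counts in HOXA9 OFF, 115 and 61 in control cells and 62 and 168 in CAF-1 OFF. Its log2 difference from control in HOXA9 OFF was 2.63 ± 0.43 (edgeR FDR 0.0056). Nod1, a sensor of bacterial cell wall fragments, was higher in HOXA9 OFF by 2.19 ± 0.24 (edgeR FDR 0.00167). In CAF-1 OFF its libraries, at 7.69 and 8.91 CPM, also lay above the 4.60 and 3.13 CPM of control (log2 difference 1.09 ± 0.24, edgeR FDR 0.216). Nlrx1, the mitochondrial NLR protein, was higher by 1.54 ± 0.23 (edgeR FDR 0.00436). The gene that fell was Nlrc5, a regulator of MHC class I genes, named after its values were seen, at 14.1 and 27.6 CPM in HOXA9 OFF against 51.3 and 61.1 CPM in control (log2 difference -1.43 ± 0.30, edgeR FDR 0.0143). Nlrp2, Nlrp4a, Nlrp5, Nlrp9b and Nlrp14, known mainly from oocytes, testis or embryos, had 0 counts in every library.

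**Figure D5:**
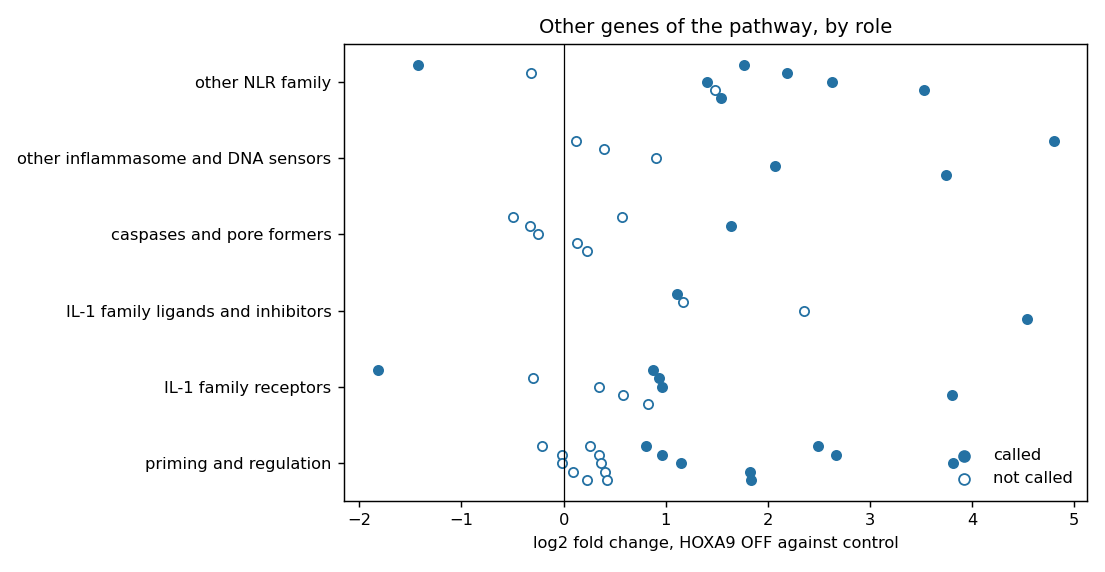
Log2 fold change in HOXA9 OFF against control of the 53 other pathway genes that passed the filter, in rows by role, with filled points for genes called and open points for the rest. Filled points lie to the right of 0 except for Nlrc5 and Sigirr.

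Among the other sensors of DNA and infection, 0 of the 3 that both controls carried past the filter were called in HOXA9 OFF (Mefv, Mb21d1 and Tmem173, by the edgeR quasi-likelihood test). Zbp1, Ifi203 and Ifi204 were called higher, but none of them had both controls above the filter. Among caspases and pore formers, 1 of 7 rose in HOXA9 OFF (Casp4), near the 12.3% of all genes that passed in this way. Gsdmd, which encodes the pore-forming gasdermin D that caspase-1 cleaves, had 97.7 and 88.0 CPM in HOXA9 OFF against 63.0 and 62.1 CPM in control. Its log2 difference of 0.57 ± 0.13 (edgeR FDR 0.0173) was below the fold cutoff, and the gene was named after its values were seen. In CAF-1 OFF it stood at 61.6 and 50.8 CPM.

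Of the 2 other ligands and inhibitors of the IL-1 family that both controls carried past the filter, 1 rose in HOXA9 OFF (Il18bp). Il1rn, the IL-1 receptor antagonist, had 239 and 237 counts in HOXA9 OFF, 17 and 7 in control cells and 18 and 18 in CAF-1 OFF (log2 difference 4.54 ± 0.34, edgeR FDR 0.000552). Il18bp, the binding protein that neutralizes IL-18, was higher in HOXA9 OFF by 1.11 ± 0.31 (edgeR FDR 0.0351), a call lost without either control or either HOXA9 OFF library. Il33, an alarmin of the same family chosen here after its values were seen, was highest in CAF-1 OFF, at 5.35 and 10.6 CPM against 0.943 and 0.522 CPM in control and 1.93 and 1.46 CPM in HOXA9 OFF. Its log2 difference from control was 3.40 ± 0.48 in CAF-1 OFF (edgeR FDR 0.0976), and the difference between CAF-1 OFF and HOXA9 OFF was 2.23 ± 0.45 (edgeR FDR 0.0129).

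Among receptor and signaling genes, 3 of 7 rose and 1 fell in HOXA9 OFF. Il1r2, the decoy receptor, which had 1 control above the filter, rose by 3.80 ± 0.50 (edgeR FDR 0.00281), from 11 and 10 counts in control to 90 and 161, and had 43 and 49 counts in CAF-1 OFF (log2 difference 2.23 ± 0.50, edgeR FDR 0.23). Sigirr, an inhibitory receptor of the family, fell by 1.82 ± 0.15 (log2, edgeR FDR 0.000713), from 172 and 194 CPM to 49.0 and 54.7 CPM, and stood at 172 and 134 CPM in CAF-1 OFF. The signaling genes Myd88 (0.96 ± 0.17, edgeR FDR 0.00719) and Irak4 (0.93 ± 0.11, edgeR FDR 0.00194) were higher in HOXA9 OFF.

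Among genes of priming and regulation, 7 of 17 rose in HOXA9 OFF and 0 fell. P2rx7, the ATP-gated channel upstream of NLRP3, had 529 and 681 counts in HOXA9 OFF, 58 and 43 in control cells and 39 and 48 in CAF-1 OFF (log2 difference 3.81 ± 0.29, edgeR FDR 0.000561). Irf8, a transcription factor of monocytes, rose by 2.49 ± 0.41 (edgeR FDR 0.00605), Tnfaip3, an NF-kB inhibitor, by 1.83 ± 0.28 (edgeR FDR 0.00433) and Card6 by 1.84 ± 0.34 (edgeR FDR 0.00908), a call lost without control 1 (edgeR FDR 0.0572) and without HOXA9 OFF 1 (edgeR FDR 0.0541). In CAF-1 OFF, P2rx7 differed from control by -0.09 ± 0.30 (edgeR FDR 0.942).

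Most markers on the lists of myeloid cells, which include early granulocyte genes such as Elane and Fcnb, were higher in HOXA9 OFF. Of the 7 monocyte and macrophage markers tested, 6 were called higher and 1 (Ccr2) lower, against 13% and 8.97% of all genes tested. Their summed level was 657 and 806 CPM in HOXA9 OFF, 440 and 600 CPM in control and 674 and 585 CPM in CAF-1 OFF. Most of this sum was Ccr2 in both control libraries (346 and 539 CPM) and after CAF-1 knockdown (517 and 373 CPM). Ccr2 fell to 67.2 and 212 CPM after HOXA9 inactivation, so the sum understates the rise of the other 6 markers. Csf1r, with the largest rise, stood at 4.05 and 4.24 CPM in control and at 215 and 292 CPM without HOXA9 activity. Of the 7 granulocyte markers that both controls carried past the filter, 5 were called higher in HOXA9 OFF, against 12.3% of all genes that passed in this way. The 9 of the list summed to 10500 and 7770 CPM in HOXA9 OFF, 7050 and 4500 CPM in control and 8930 and 8480 CPM in CAF-1 OFF. No granulocyte marker was at 0 in any group. Most of each granulocyte sum was Mpo, at 8550 and 6670 CPM in HOXA9 OFF and 6440 and 4110 CPM in control. In HOXA9 OFF, Mpo and Elane were not called (edgeR FDR 0.112 and 0.131). In CAF-1 OFF, 0 of the granulocyte markers were called by edgeR, although 9 of 9 lay above control in both libraries (20.1% of all genes) and 7 had an unadjusted p under 0.05 (10.7% of all genes). The part of these shifts in the levels of the inflammasome genes was not tested.

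Markers of other lineages were also summed. Mast cell and basophil markers summed to 691 and 305 CPM after CAF-1 knockdown, 288 and 243 CPM in control and 326 and 391 CPM after HOXA9 inactivation, with 0 of 4 called in either comparison with control. Megakaryocyte and erythroid markers summed to 66.1 and 33.9, 24.5 and 23.9, and 72.6 and 79.2 CPM in the same order. Of the 4 tested, 2 rose in HOXA9 OFF, against 13% of all genes tested. Of the 5 lymphoid markers Cd3e and Ncr1 had 0 counts in every library. The sum, led by Ebf1, was 128 and 119, 95.6 and 104, and 5.79 and 7.40 CPM in the same order. Both controls carried 2 of them past the filter, and 1 (Ebf1) was lower in HOXA9 OFF, against 9.57% of all such genes. Their part in the results was not tested.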

How the data were processed

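Bulk RNA-seq was made from total RNA of 6 iGMP samples. Alignment to mm9 by STAR and counting by HTSeq-count were done by the authors, who deposited raw counts per gene symbol. Gene annotation, strand setting and overlap mode are not given in the sources used here. The 5 tally lines were set aside, and per 100 gene counts they held 5.95 to 8.26 reads in no gene, 3.00 to 3.28 ambiguous reads and 89.6 to 107 non-unique alignments. Libraries of a group differed beyond sampling noise (chi-square per degree of freedom at least 20.5).

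Tests were run with edgeR 4.0.16 under R 4.3.3 (filterByExpr, 12460 genes, TMM, quasi-likelihood test, 1 mean per group, all 6 libraries) and adjusted by Benjamini-Hochberg over all genes. A call needed a fold change of at least 1.5 and an FDR under 0.05. CPM used TMM-scaled library sizes. SEs came from the F statistic. Correlations used a prior count of 2.

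Genes and lists were chosen with earlier results of these data known. Named pathway genes were the up to 4 per role with the largest called difference in HOXA9 OFF at a mean of 1 CPM or more, and Mb21d1 was read under its older symbol. Locations and exon lengths were read from a GENCODE annotation (NCBIM37, which is mm9) and promoters from RefSeq (GRCm38.p6). The code was tested on simulated counts. Alternatives included DESeq2 1.42.0, the edgeR exact test, other scalings, filters and cutoffs, fits to 4 libraries, a replicate block and fits without each library. Counts over genes that both controls carried past the filter were added after seeing the data. 1 listed marker is not reported here.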

Additional observations from a re-analysis of the deposited data

How the results depend on the processing

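Differences of the 10 genes from control in HOXA9 OFF, and from HOXA9 OFF in CAF-1 OFF, kept their direction under all alternatives run. The replicate number, which nothing says pairs the samples, gave as a block 2680 calls in HOXA9 OFF against control (2594 shared with the fit without it) and 2684 in CAF-1 OFF against HOXA9 OFF (2575 shared), and of the 10 genes it ended only the call of Nlrp10 in HOXA9 OFF (log2 difference 2.16 with the replicate block). Same-numbered deviations correlated at 0.469, -0.169 and 0.034. In CAF-1 OFF against control, 4 genes were called in all, and this count was 2 with the replicate block. DESeq2 called 192, the exact test of edgeR 243 and a fit without a filter 378, and a fit to 4 libraries called 9. The stricter cutoff of a 2-fold change at FDR 0.01 left 0, while 1330 genes had an unadjusted p under 0.05. A block with crossed numbers, chosen after seeing the data, called 89 genes, 1 of the 10 genes and 1 other pathway gene.

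In the same comparison, which chose the genes and from which no call is read, 0 of the 10 genes were called by edgeR (5 at an unadjusted p under 0.05), and 2 with DESeq2, 3 with the exact test, 4 without a filter and 1 with only the 4 libraries compared. Other pathway genes called were 0, and 3 with DESeq2, 3 with the exact test and 4 without a filter. Of the 2 neighbours of Nlrp10 tested, 1 was called (Tub, already known to rise), and 0 at the stricter cutoff. In HOXA9 OFF against control, the stricter cutoff left 987 genes in all and 14 other pathway genes, and a mean CPM of at least 5 left 17 other pathway genes. In CAF-1 OFF against HOXA9 OFF, the stricter cutoff left 948 genes in all and 8 other pathway genes.

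Leaving out each library in turn leaves 1 library in a group, which is assumed to vary like the others. In HOXA9 OFF against control it gave 1602 to 2840 genes in all (1602 without control 2), 5 to 8 of the 10 genes (5 without control 2) and 20 to 27 other pathway genes. In CAF-1 OFF against control it gave 0 to 10 genes in all, 0 to 1 of the 10 genes, and 0 to 1 neighbours of Nlrp10. In CAF-1 OFF against HOXA9 OFF it gave 1711 to 2718 genes in all (1711 without HOXA9 OFF 1), 6 to 8 of the 10 genes and 16 to 29 other pathway genes. With the longest transcript as length, control levels were 1.17 CPM per kb for Nlrp3 and 13.4 CPM per kb for Aim2, and Il1b rose above Nlrp10 in control (0.13 against 0.118 CPM per kb) and HOXA9 OFF, and above Nlrp12 in CAF-1 OFF. The cause of these shifts was not tested. Depth limits Il18 and Il1b, whose control libraries held at most 6 counts.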
